A study of Mus musculus with 2 samples.

Results

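The Dlk1-Meg3-Dio3 locus of distal mouse chromosome 12 is described here in the liver of C57BL/6J mouse embryos of mixed sex at embryonic day 18 (E18). Its 6 member genes, Dlk1, Meg3, Rtl1, Rian, Mirg and Dio3, were matched by symbol to gene identifiers, and all 6 were found among the 43346 mouse genes of the deposited gene tables. The data are 2 stranded libraries of rRNA-depleted poly(A)+ RNA longer than 200 nt with added spike-in RNAs, labelled biological replicates 1 and 2 of 1 group, with no second condition, age or tissue. The labels call the embryos littermates and do not say whether both libraries came from 1 litter. Ratios between the libraries are given as replicate 1 over replicate 2, and with 1 library on each side no p-value is given. Where a mean ± SD is printed, n is 2 libraries.

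The locus is one of the imprinted regions of the mammalian genome, in which a gene is read mainly from the chromosome of 1 parent. The paternal copy gives the protein-coding genes Dlk1, Rtl1 and Dio3, and the maternal copy gives the long noncoding RNAs Meg3, Rian and Mirg, whose transcripts and introns carry many small nucleolar RNAs and microRNAs. In the developing liver, Dlk1 is a known surface marker of hepatoblasts, the precursors of hepatocytes. The tissue here came from an inbred strain, and the parental origin of the RNA was not measured. In bulk tissue, fewer cells that make an RNA and less of that RNA in each cell cannot be told apart.

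Mouse genes held 159127988 expected counts in replicate 1 and 136904873 in replicate 2, an expected count being an estimated number of fragments. Spike-in RNAs held 2.79% of all counts in replicate 1 and 2.01% in replicate 2. The labels describe pooled males and females for both libraries, but Xist, the RNA of the inactive X chromosome in females, stood at 99.1 TPM in replicate 1 and 0.02 TPM in replicate 2. Liver markers were abundant in both libraries: 8 hepatocyte and hepatoblast genes, Alb and Afp among them, summed to 141000 TPM in replicate 1 and 143200 TPM in replicate 2. Levels on mm10 are given in TPM, the deposited relative abundance per effective length, so that genes of different length can be compared.

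Of the 6 members, 4 reached 1 TPM in each library, a level called detected here, against 28.4% of all mouse genes. Meg3, Rian, Dlk1 and Mirg passed this level, while Rtl1 and Dio3 were below it in both libraries. Together the members held 0.104% of all TPM in replicate 1 and 0.142% in replicate 2. Measured in TPM, Meg3 made up 44.4% ± 3.72 of the locus (SD, n = 2), Rian 35.0% ± 3.50 and Dlk1 18.4% ± 0.140. Mirg held 2.15% ± 0.0710, and Dio3 and Rtl1 held 0.0144% ± 0.0124 and 0.0123% ± 0.00247.

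Among the coding members, Dlk1 (ENSMUSG00000040856.13, chromosome 12, 109452823 to 109463336 on mm10, plus strand) encodes a transmembrane protein with EGF-like repeats that is related to the ligands of Notch receptors. Its level was 193 TPM in replicate 1 and 260.5 TPM in replicate 2, a mean of 227 ± 48.0 TPM. It ranked 364 among all mouse genes by mean TPM. Rtl1 (ENSMUSG00000085925.2, 109589193 to 109600330, minus strand), a gene derived from a retrotransposon and known for its role in the placenta, stood at 0.11 TPM in replicate 1 and 0.20 TPM in replicate 2. Those levels rest on 104 counts in replicate 1 and 162 counts in replicate 2. Dio3 (ENSMUSG00000075707.5, 110279068 to 110281097, plus strand), the deiodinase that inactivates thyroid hormones, stood at 0.24 TPM in replicate 1, from 56 counts, and at 0.08 TPM in replicate 2, from 18 counts. Dlk1 over Rtl1 was 1751 in replicate 1 and 1302 in replicate 2, and the order of Rtl1 and Dio3 differed between the libraries.

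The noncoding members were the more abundant class. Meg3 (ENSMUSG00000021268.13, 109541001 to 109571726, plus strand), a nuclear long noncoding RNA, had 434 TPM in replicate 1 and 668 TPM in replicate 2, a mean of 551 ± 165 TPM. It ranked 4 among 5694 long noncoding genes, of which 5.46% were detected in both libraries by the same rule. Rian (ENSMUSG00000097451.5, 109603940 to 109661716, plus strand), the host of a cluster of C/D-box small nucleolar RNAs, had 389.7 TPM in replicate 1 and 462 TPM in replicate 2 and ranked 6 in that class. Mirg (ENSMUSG00000097391.4, 109729764 to 109749460, plus strand), a host of microRNAs, had 22.9 TPM in replicate 1 and 29.9 TPM in replicate 2. Both values of Meg3 were above both values of Dlk1, but the ranges of Meg3 and Rian overlapped.

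**Figure D1:**
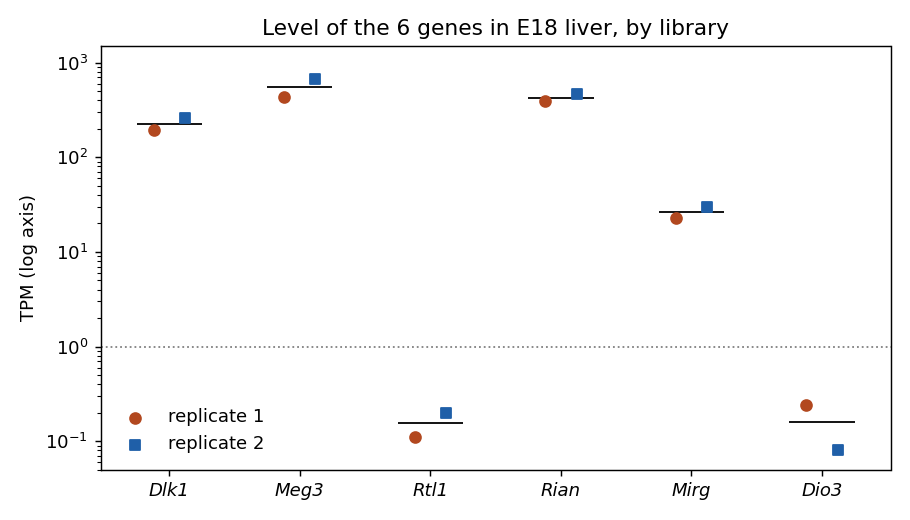
Level of each of the 6 genes in TPM on a log axis, with replicate 1 as a circle left of replicate 2 as a square, and a line at their mean; the dotted line marks 1 TPM. Meg3, Rian, Dlk1 and Mirg lie between 22.9 and 668 TPM, and Rtl1 and Dio3 lie below 1 TPM.

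The ratio of summed noncoding to summed coding members was stable between the libraries, at 4.39 in replicate 1 and 4.45 in replicate 2. Meg3 over Dlk1 was 2.25 in replicate 1 and 2.56 in replicate 2. Rian over Mirg was 17.0 in replicate 1 and 15.5 in replicate 2, and Meg3 over Rian was 1.11 in replicate 1 and 1.44 in replicate 2. The order of Rian and Dlk1 was the other way round in the deposited mm9 gene table, and the cause was not tested. There the gene that covers Rian, which carries no name in the sources used here but shares 23 of its 24 intron lengths with Rian, had RPKM values (read density per kilobase and depth) of 50.1 and 21.4 under that table's numbers 1 and 2. Dlk1 had 58.5 and 39.5 RPKM, and Meg3 had 129 and 90.8 RPKM.

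The mm9 tables number their replicates 1 and 2, but no label or header ties these numbers to the labelled libraries. In the mm9 gene table Xist had 0.0362 RPKM under number 1 and 27.1 RPKM under number 2, while in the junction list it had 9814 reads under number 1 and 1 read under number 2. By Xist alone, number 1 of the junction list and number 2 of the gene table resemble replicate 1 of the mm10 tables, and the 2 files run in opposite directions. Columns were not assigned to libraries by their values, so values from these files are given as the first and the second number of that file.

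All members except Dio3 were lower in replicate 1. On counts scaled by TMM, with 0.5 added to each count, the log2 ratio of replicate 1 over replicate 2 was -0.32 for Dlk1, -0.46 for Meg3, -0.80 for Rtl1, -0.17 for Rian and -0.28 for Mirg, against a median of -0.00129 over all 14956 genes with a mean count of at least 50. Of the 5 members above that count, 1, Rtl1, was lower in replicate 1 by more than 1.5-fold, where 1.62% of all genes were. In the other direction 4.08% of all genes were beyond 1.5-fold and none of the 5 was, which makes 1 of 5 in either direction, against 5.7% of all genes. None of the 5 was beyond 2-fold, where 1.47% of all genes were higher and 0.348% lower in replicate 1. Being lower in replicate 1 by any amount, as all 5 were, was the case for 50.4% of all genes and for 385 of 633 long noncoding genes.

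Meg3 departed most among the 4 detected members: its 69957 counts in replicate 1 and 85555 in replicate 2 gave a scaled ratio of 0.729, and 3.47% of genes had a lower ratio. Rian had nearly equal raw counts of 67749 in replicate 1 and 68036 in replicate 2. For Rtl1, the exact (Clopper-Pearson) 95% interval of the log2 ratio ran between -1.18 and -0.44, and it covers counting error only. Dio3 was higher in replicate 1, with a log2 ratio of 1.44 and an interval between 0.68 and 2.33, but its mean count was under 50. Scaling by spike-in totals moved the median of all genes to -0.54 and the members to values between -1.34 for Rtl1 and -0.71 for Rian, with Dio3 at 0.91. Junction reads from the separate mm9 alignment gave log2 ratios of the first over the second number, per total junction reads, of -0.42 for Dlk1, -0.61 for Meg3, -0.22 for Rian and -0.38 for Mirg.

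**Figure D2:**
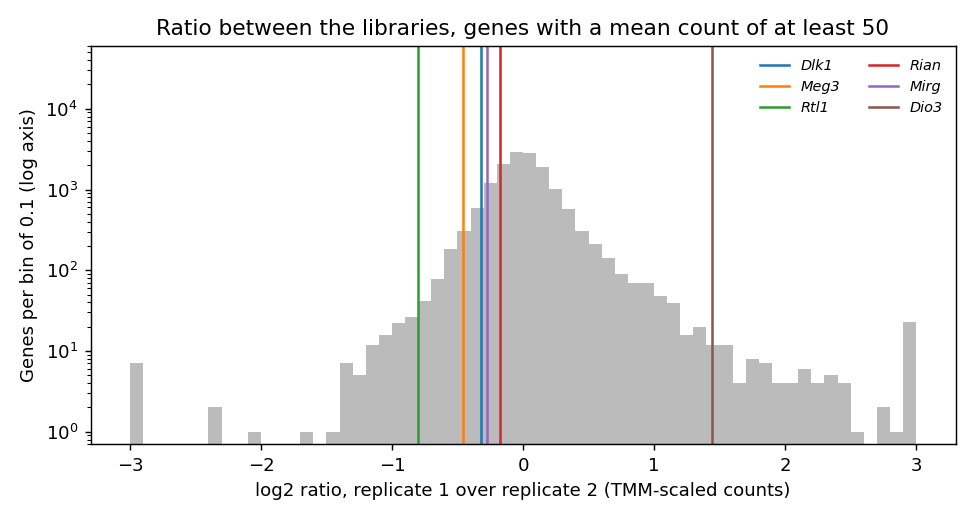
Number of genes in each bin of the log2 ratio of replicate 1 over replicate 2, for genes with a mean count of at least 50, on a log axis; ratios beyond 3 in either direction are in the end bins. Coloured lines mark the 6 members: 5 lie left of 0, between -0.80 and -0.17, and Dio3, which is below the count minimum, lies at 1.44.

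Markers of neighbouring tissues differed between the same libraries. Over all genes with a mean count of at least 50, 4.08% were higher and 1.62% lower in replicate 1 by more than 1.5-fold. The 8 pancreatic acinar genes summed to 65.8 TPM in replicate 1 and 18.8 TPM in replicate 2. Of the 7 with a mean count of at least 50, 6 were higher in replicate 1 by more than 1.5-fold. The other of the 7, Cela1, had 14.3 TPM in replicate 1 and 18.1 TPM in replicate 2, nearly all of the replicate 2 sum. Pancreatic endocrine genes summed to 4.48 TPM in replicate 1 and 0.53 TPM in replicate 2, with Ins2 at 100 counts in replicate 1 and 0 in replicate 2 and Ins1 at 56 counts in replicate 1 and 0 in replicate 2. Striated muscle genes summed to 19.1 TPM in replicate 1 and 7.40 TPM in replicate 2, and all 6 above the count minimum were more than 1.5-fold higher in replicate 1. The part of these tissues in the member ratios, Dio3 included, was not tested. Stellate and mesenchymal genes summed to 163 TPM in replicate 1 and 178 TPM in replicate 2, with none of 10 beyond 1.5-fold and a median log2 ratio of -0.10. Endothelial genes summed to 163 TPM in replicate 1 and 169.9 TPM in replicate 2, and erythroid genes to 1115 TPM in replicate 1 and 1099 TPM in replicate 2, with none of either list beyond 1.5-fold. Of the hepatocyte genes, 1 of 8, Ttr, was higher in replicate 1 by more than 1.5-fold. The 7 adrenal genes summed to 167 TPM in replicate 1 and 198 TPM in replicate 2, nearly all from Hsd3b1, and the other 6 were below 1 TPM in both libraries.

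In the mm10 tables, 1 full-length form held most of the Dlk1 RNA. The authors' transcript tables gave Dlk1-205, whose coding sequence has 385 codons, 63.2% of the gene's TPM in replicate 1 and 64.3% in replicate 2. Second came Dlk1-203, with 312 codons, at 28.0% in replicate 1 and 25.3% in replicate 2. The other 8 transcripts of the gene each had a mean below 5%. The mm9 transcript table was less even, with Dlk1-205 at 44.8% and 62.5% of Dlk1 RPKM under numbers 1 and 2, Dlk1-203 at 10.5% and 19.7%, and Dlk1-210 at 27.5% and 2.11%. The forms differ by splices inside the last exon. In mouse the longer of these are known to remove the segment next to the membrane that holds the site where proteases release the soluble protein. The 6 annotated transcripts with any splice inside the last exon summed to 35.9% of Dlk1 TPM in replicate 1 and 34.8% in replicate 2. That sum includes the shorter splices of 150 and 153 nt, so it is not the share of forms without the site.

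The most used of these splices removes 225 nt of coding sequence, or 75 codons. Its sequence is shown because 4 of the 6 annotated internal splices begin at its first base and differ in where they end. It lies at chr12:109459893-109460117 on mm10, plus strand, and was taken from GENCODE M21 transcript Dlk1-205. Capitals mark the shared GT at its start and the 4 AG ends, which remove 150, 153, 219 and 225 nt.

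Dlk1 last-exon segment: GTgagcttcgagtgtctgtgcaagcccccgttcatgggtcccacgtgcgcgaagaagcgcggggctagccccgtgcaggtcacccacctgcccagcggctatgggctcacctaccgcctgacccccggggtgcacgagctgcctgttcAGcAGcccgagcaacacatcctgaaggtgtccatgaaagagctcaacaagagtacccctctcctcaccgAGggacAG

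Junction reads in the mm9 list counted these forms directly. Reads into the last exon numbered 5167 and 6008 under the 2 numbers of the list, and reads over the 6 annotated internal splices numbered 1218 and 1318. That is 23.6 and 21.9 internal reads per 100 reads into the exon, a mean of 22.8 ± 1.16. All 6 lengths are multiples of 3. The 225-nt splice had 740 and 817 reads, 60.8% and 62.0% of the internal reads, with 95% Wilson intervals of 58.0 to 63.5% and 59.3 to 64.6%. The 153-nt splice followed with 212 and 209 reads, the 219-nt splice with 113 and 162, and the 150-nt splice with 84 and 88.

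The junction reads and the transcript shares ranked the spliced forms differently. The 219-nt splice is the one in Dlk1-203, the second transcript by TPM, but it had only 2.44 ± 0.360 reads per 100 into the exon. The 225-nt splice is the one in Dlk1-208, which had 13.96 ± 0.511 reads per 100 but 1.30% of Dlk1 TPM in replicate 1 and 1.28% in replicate 2. These transcripts also differ at their 3′ ends, with lengths of 1129 nt for Dlk1-203 and 3914 nt for Dlk1-208. An unannotated junction of 66 nt inside the same exon had 311 and 396 reads. It is not marked as canonical, begins and ends with CC, and is flanked by a direct repeat of 5 nt. Such repeats were not particular to it. They measured 4 nt at the 225-nt splice, 3 nt at the 153-, 219- and 150-nt splices, and 5 nt at an unannotated canonical junction of 174 nt.

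**Figure D3:**
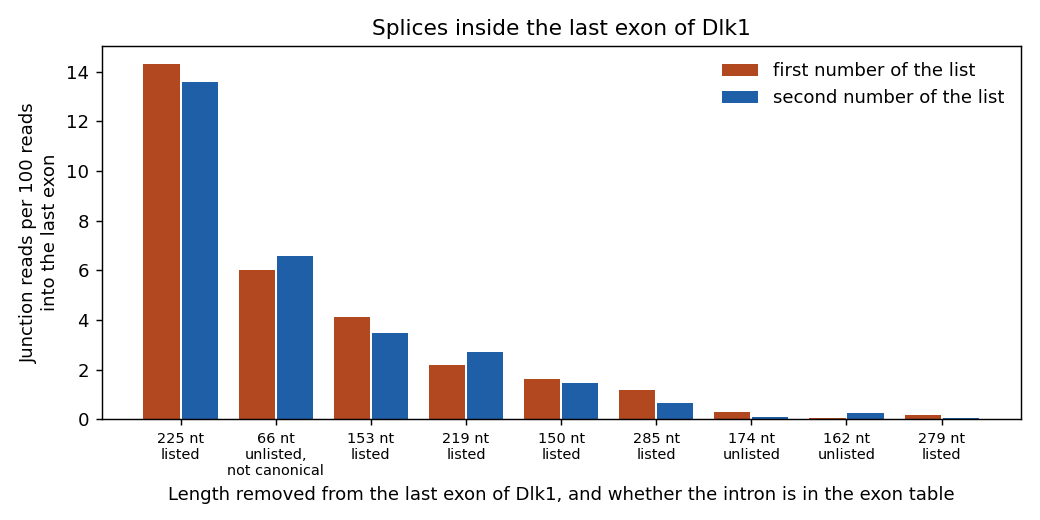
Reads over each splice inside the last exon of Dlk1 with at least 10 reads, per 100 reads into that exon, with the first number of the junction list left of the second. The 225-nt splice stands at 14.3 and 13.6, and the unannotated, non-canonical 66-nt junction is next at 6.02 and 6.59.

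The genes thought to act with DLK1 were expressed at low to moderate levels. Of 15 genes for its release and for Notch signalling, 9 were detected, and none of 14 differed beyond 1.5-fold. Adam10, a membrane protease, had 20.7 TPM in replicate 1 and 21.2 TPM in replicate 2, and Adam17, known to cut DLK1, had 7.13 TPM in replicate 1 and 7.99 TPM in replicate 2. Hes1, a Notch target, had 12.7 TPM in replicate 1 and 11.02 TPM in replicate 2. Dlk2, a close relative of Dlk1, had 3 counts in each library.

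The window at the start of Meg3 holds a TATA motif. In the RefSeq promoter sequence (GRCm38.p6, chr12:109540746-109541045, plus strand), which runs over 250 bases before the start and 50 after it, TATAAA begins at position -25 and the motif TGACGTCA, to which CREB proteins are known to bind, at -57. A second TATAAA on the opposite strand begins at -29 and overlaps the first. Of 32851 RefSeq promoter windows, 13.6% hold TATAAA on either strand and 1.79% hold TGACGTCA. A second RefSeq window for Meg3, further into the gene (chr12:109545148-109545447), holds neither motif. The sequence of the window at the gene's start is shown because it belongs to the most abundant member, with both motifs in capitals.

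Meg3 promoter: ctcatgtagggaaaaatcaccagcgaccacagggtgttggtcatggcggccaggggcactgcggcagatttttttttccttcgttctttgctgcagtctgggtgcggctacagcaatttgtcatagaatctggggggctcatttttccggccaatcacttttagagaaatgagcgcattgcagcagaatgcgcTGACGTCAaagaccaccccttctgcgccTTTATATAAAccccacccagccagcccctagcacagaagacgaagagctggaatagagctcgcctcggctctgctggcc

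Among 11 annotated Meg3 transcripts, short spliced forms led. Meg3-204, of 695 nt, held 39.9% of Meg3 TPM in replicate 1 and 40.2% in replicate 2, and Meg3-208, of 706 nt, held 28.8% in replicate 1 and 27.6% in replicate 2. Meg3-205 held 13.1% in replicate 1 and 10.3% in replicate 2, and Meg3-207 held 9.82% in replicate 1 and 11.1% in replicate 2. By counts the picture differed: Meg3-209, of 14548 nt, took 33.0% of the gene's counts in replicate 1 and 31.2% in replicate 2 but 2.39% of its TPM in replicate 1 and 2.16% in replicate 2. Meg3-211 was a minor form that differed between the libraries, with 209 counts in replicate 1 and 1258 in replicate 2. In the mm9 transcript table the same pair led, with 39.4% and 40.9% of Meg3 RPKM for Meg3-204 and 37.1% and 31.3% for Meg3-208.

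Of the 388 plus-strand junctions inside Meg3, the 10 with most reads held 96.9% of 84568 reads. The leading intron (mm9 chr12:110788021-110796446) had 9232 and 12511 reads under the 2 numbers. The next intron of the chain (110796531 to 110809600) had 5049 and 6587 reads, or 53.7 ± 1.44 reads onward per 100 reads into the exon between them. Skipping of that exon was rare, with 86 and 122 reads over the junction that joins its neighbours.

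**Figure D4:**
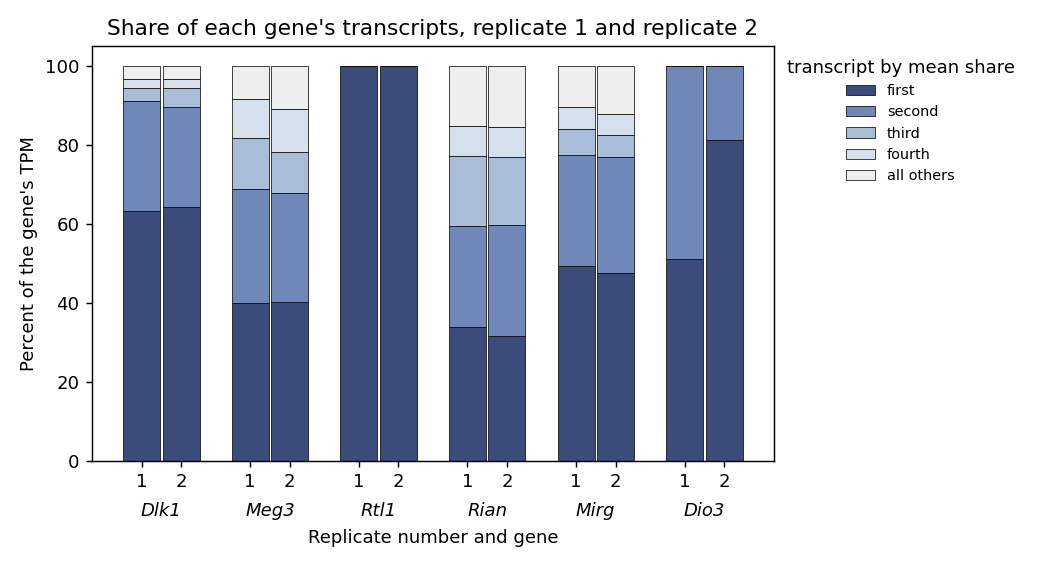
Percent of each gene's TPM held by its transcripts, with replicate 1 left of replicate 2 for each gene and shading by the order of mean share. The leading transcript is the same in both libraries for all 6 genes, and the Dio3 shares, which rest on 56 counts in replicate 1 and 18 in replicate 2, differ most.

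Rian and Mirg had more annotated transcripts than Meg3. Of 19 Rian transcripts, Rian-213 held 33.9% of TPM in replicate 1 and 31.4% in replicate 2, Rian-202 held 25.5% in replicate 1 and 28.3% in replicate 2, and Rian-207 held 17.8% in replicate 1 and 17.0% in replicate 2. Rian-208 held 7.61% in replicate 1 and 7.74% in replicate 2. Rian had 82929 junction reads over 282 junctions. Its most read intron (mm9 chr12:110892643-110894058) had 8848 and 8433 reads, and the 10 leading introns held 82.3% of its reads. Of 12 Mirg transcripts, Mirg-207 held 49.2% in replicate 1 and 47.5% in replicate 2, and Mirg-202 held 28.1% in replicate 1 and 29.4% in replicate 2. Mirg-201 held 6.67% in replicate 1 and 5.48% in replicate 2, and Mirg-209 held 5.55% in replicate 1 and 5.33% in replicate 2. Mirg had 4284 junction reads, of which 2005 crossed the intron at 110986504 to 110987304. No member's leading transcript differed between the libraries.

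Plus-strand read coverage extended over most of the span between Meg3 and Mirg. Contigs, stretches of stranded coverage in the deposited mm9 list, covered 94.9% of the 208.5 kb between the start of Meg3 and the end of Mirg on the plus strand. These were 69 separate contigs with 68 gaps, 10.66 kb in all and none over 1.16 kb. On the minus strand they covered 4.22% of the same span. Between Dlk1 and Meg3, the plus strand was covered over 0.601% of 77.7 kb. Mean contig signal was 27.6 where Dlk1 was covered, 28.4 in Meg3, 6.78 in Rian and 1.84 in Mirg. It was lower but present between the genes, at 0.287 between Meg3 and Rtl1 and 0.211 between Rian and Mirg. The scale of this signal is not given in the sources used here.

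Few spliced reads joined 1 member to another. Of 1417 junctions between the start of Dlk1 and the end of Dio3, 388 were read at least once under both numbers, and 99.3% of the 218862 reads were on the plus strand. Introns of the mm9 exon table took 94.7% of the reads. The 29 junctions that joined different members had at most 2 reads each, none was read under both numbers, and 1 was marked canonical. A single canonical junction with reads under both numbers joined a member's span to a gap: it ran on the plus strand between the Rtl1 span and the stretch before Rian (110838150 to 110841977) and had 7 and 11 reads.

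**Figure D5:**
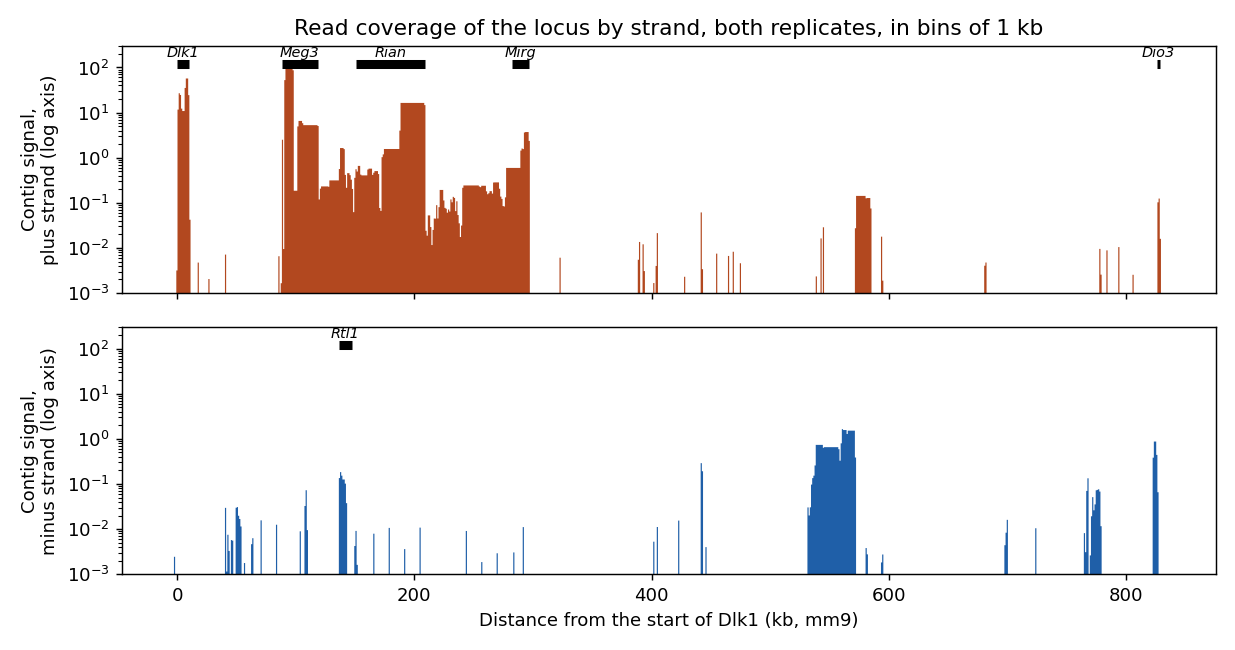
Contig signal per base in bins of 1 kb along the locus, on log axes, for the plus strand above and the minus strand below, against the distance from the start of Dlk1 on mm9; black bars mark the members on their own strand. At this bin size the plus strand is covered nearly without a break between Meg3 and Mirg and almost empty between Dlk1 and Meg3. The minus strand shows a low signal at Rtl1 and a separate block between Mirg and Dio3.

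Over the Rtl1 gene the opposite strand was the more covered one. The plus strand, antisense to Rtl1, was covered over 93.5% of the gene with a mean signal of 0.921, and the minus strand, on which Rtl1 is read, over 52.1% with 0.149. Per base of the gene, the signal was 0.86 on the plus strand and 0.0776 on the minus strand, a ratio of 11.1. Junctions showed the same order, with 102 reads over 37 plus-strand junctions and 3 reads over 3 minus-strand junctions. Of the 37, however, 3 were marked canonical, 6 were read under both numbers and none was in the exon table. The libraries were stranded per the labels. Over Dlk1, whose plus-strand signal was 27.6, no minus-strand contig was listed. Minus-strand contigs did lie over the other plus-strand members with high signal. They covered 4.79% of Meg3 with a mean signal of 0.0863, 1.00% of Rian with 0.0611 and 1.17% of Mirg with 0.0858. The part of reads given to the wrong strand was not tested.

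The plus strand here is known as anti-Rtl1, a source of microRNAs that are complementary to Rtl1 mRNA. RefSeq (GRCm38.p6) places 6 of their hairpins on this strand within the Rtl1 gene, with mature sequences between 109590459 and 109595387, and all 11 mature sequences from them were fully complementary to the GENCODE M21 transcript Rtl1-201, as their position opposite it implies. No other mature microRNA of the interval in the table was. One mature sequence of each hairpin is shown, because these are the only small RNAs of the locus opposite a coding member, with the seed (bases 2 to 8) in capitals. None of the 6 shares a seed with another. On mm9, 4 of 6 plus-strand microRNA genes within Rtl1 lay whole inside a plus-strand contig, and Mir432 did not.

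miR-431-5p: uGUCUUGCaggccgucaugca
miR-433-3p: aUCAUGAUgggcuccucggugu
miR-127-3p: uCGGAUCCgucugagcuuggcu
miR-434-3p: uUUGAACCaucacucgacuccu
miR-432: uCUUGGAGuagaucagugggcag
miR-136-5p: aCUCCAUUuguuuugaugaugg

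Small RNAs themselves were not measured, since RNA under 200 nt was left out. In the mm10 gene table, 86 small RNA genes of the interval, 59 of them microRNAs and 23 small nucleolar RNAs, were all listed at 0, and 85 of them had an effective length of 0. Their host transcripts were covered: 41 of 48 plus-strand microRNA genes and 20 of 22 plus-strand small nucleolar RNA genes of the mm9 table lay whole inside a plus-strand contig. Signal is listed per contig, so small RNA genes inside the same contig share its value and are not separate measurements. The 12 small nucleolar RNA genes inside Rian all had a value of 1.6 or 16.8, with a median of 16.8. The median of such values was 0.0925 for the 10 between Rian and Mirg. For microRNA genes it was 1.64 inside Mirg and 0.216 between Rian and Mirg. Mirg has its mm9 extent here, which is shorter than on mm10. Mir382, Mir134 and Mir485, inside Mirg on mm10, are therefore counted between Rian and Mirg. These medians describe the contigs around the genes and not the signal at each gene. Of 54 plus-strand hairpins in the RefSeq table, 14 shared a seed with another hairpin, in 9 seeds of 2 hairpins each. One such pair, which shares more than its seed and lies between Rian and Mirg, is shown with the seed in capitals.

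miR-379-3p: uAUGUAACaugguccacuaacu
miR-411-3p: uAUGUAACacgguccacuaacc

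The genes that process microRNAs were present at low to moderate levels, with a median of 4.68 TPM. Of 9, 8 were detected and none differed beyond 1.5-fold. Dgcr8, a subunit of the nuclear processing complex, had 11.4 TPM in replicate 1 and 14.7 TPM in replicate 2. Tarbp2, a partner of Dicer, had 29.7 TPM in each library. These were the highest of the 9. Drosha had 4.05 TPM in replicate 1 and 5.31 TPM in replicate 2, and Dicer1 had 3.53 TPM in replicate 1 and 4.18 TPM in replicate 2.

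Dio3 lay at the far end of the locus and had no junction, as an intronless gene. Contigs covered 95.7% of it on the plus strand at a mean signal of 0.126. The deposited interval of its TPM was 0.173 to 0.309 in replicate 1 and 0.0533 to 0.140 in replicate 2. Each of these intervals of the authors covers 1 library only. Its RefSeq promoter (GRCm38.p6, chr12:110278980-110279279, plus strand) holds TATAAA at -31 and no TGACGTCA. It has 25 CpG dinucleotides, more than 81.6% of promoters have, where the Meg3 window shown above has 13 and the second Meg3 window 1. The Dio3 promoter is shown beside that first Meg3 window because both hold the TATA motif, in capitals, at very different RNA levels.

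Dio3 promoter: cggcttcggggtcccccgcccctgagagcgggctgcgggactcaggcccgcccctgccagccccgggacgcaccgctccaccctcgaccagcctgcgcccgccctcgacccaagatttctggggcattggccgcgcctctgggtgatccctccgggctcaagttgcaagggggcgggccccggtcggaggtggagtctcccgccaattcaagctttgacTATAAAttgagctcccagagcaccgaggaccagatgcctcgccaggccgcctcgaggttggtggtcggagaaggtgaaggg

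The other deiodinases were also below 1 TPM. Dio1, which in the adult liver is known to activate thyroid hormone, had 46 counts in replicate 1 and 16 in replicate 2, and Dio2 had 63 in replicate 1 and 59 in replicate 2. Of 15 genes listed for thyroid hormone handling and response, Dio1 and Dio2 among them, 11 were detected. Of the 13 above the count minimum, 3 were higher in replicate 1 by more than 1.5-fold, where 4.08% of all genes were. These were Ttr, a plasma carrier of the hormone, at 6069 TPM in replicate 1 and 3892 TPM in replicate 2, Thrsp, a responsive gene, at 7.99 TPM in replicate 1 and 1.89 TPM in replicate 2, and the transporter Slco1a1, at 0.49 TPM in replicate 1 and 0.20 TPM in replicate 2. None was lower by that much, where 1.62% of all genes were. All 9 genes for making selenoproteins, the class to which deiodinases belong, were detected, with Sephs2 at 181 TPM in replicate 1 and 171 TPM in replicate 2.

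Genes known to control imprints at the locus were expressed. Of 19, 16 were detected and none of 18 above the count minimum differed beyond 1.5-fold, with a median log2 ratio of -0.11 over the 18 tested. Trim28, a corepressor that maintains imprints, had 72.5 TPM in replicate 1 and 81.4 TPM in replicate 2, and Zfp57, the zinc finger protein that recruits it, had 3.96 TPM in replicate 1 and 4.70 TPM in replicate 2. Zfp445, a second such protein, had 5.98 TPM in replicate 1 and 6.26 TPM in replicate 2. Among 23 imprinted genes elsewhere, 19 were detected, and H19 was the highest, at 9800 TPM in replicate 1 and 9562 TPM in replicate 2. Of the 21 above the count minimum, Slc38a4 was higher and Cdkn1c lower in replicate 1 by more than 1.5-fold. Of all genes, 4.08% were higher and 1.62% lower by that much. Of 12 retrotransposon-derived genes like Rtl1, 5 were detected, and Rtl8b led with 12.02 TPM in replicate 1 and 11.4 TPM in replicate 2. Rtl3 was lower in replicate 1 by more than 1.5-fold, 1 of the 9 above the count minimum. Of 9 other long noncoding RNAs found, 6 were detected, and Malat1, a nuclear RNA, had 92.5 TPM in replicate 1 and 109 TPM in replicate 2.

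The flanking genes named here were chosen as detected in both libraries, and their mean levels ran between 1.15 and 85.3 TPM. They lie 424 to 596 kb before Dlk1 and 166 to 409.5 kb after Dio3. The 3 nearest detected protein-coding genes before Dlk1 were Wdr25 at 1.15 ± 0.00707 TPM, Wars at 13.6 ± 0.0354 TPM and Slc25a47 at 85.3 ± 11.6 TPM, with log2 ratios of 0.10, 0.04 and 0.39. After Dio3 these were Ppp2r5c at 10.6 ± 0.601 TPM, Dync1h1 at 21.6 ± 3.64 TPM and Hsp90aa1 at 80.1 ± 6.42 TPM, with log2 ratios of -0.01, -0.33 and 0.29. Inside the interval, the deposited gene table held 90 other genes, of which 86 were at 0 counts in both libraries. The other 4 were the long noncoding genes Gm26906, Gm26945 and B830012L14Rik and Gm37899, a gene of no settled class, and their mean levels were at most 0.315 TPM.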

How the data were processed

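Poly(A)+ RNA from E18 mouse liver was measured in 2 stranded libraries. For each library the authors deposited mm10 tables of genes and transcripts, made with GENCODE release M4 per the deposited notes on the files, holding an expected count, a TPM, an FPKM (used only to check the shares) and, for transcripts, the percent of the gene's TPM. The TPM interval bounds in those deposited tables were read as a score. The authors also deposited mm9 files over both replicates: a gene and a transcript table with RPKM values, a list of junctions with a read count for each replicate and a score, and contigs with a signal. The sources used here name neither aligner nor quantifier, so both are not given.

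Gene symbols and positions were taken from GENCODE M21 by identifier, and 42462 of 43346 identifiers matched. Expected counts were rounded and scaled by TMM in edgeR 4.0.16 (R 4.3.3), over genes whose counts reached 10 in each library. DESeq2 1.42.0 size factors, spike-in totals, library totals, TPM ratios, other count minimums and a correction for gene length were alternatives. The ratio step was tested on simulated data. Mouse genes held 97.2% of the counts in replicate 1 and 97.9% in replicate 2, and all other rows, spike-ins among them, were left out. Coordinates are 1-based, mm9 and mm10 positions were never converted, and an mm9 gene without a name was placed by its intron lengths. Sequences are from RefSeq (GRCm38.p6) and GENCODE M21.

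The text names the members, other genes of the interval with a mean of at least 1 count, 3 detected protein-coding neighbours on each side, and members of the gene lists. The members and lists were chosen with earlier results of these data known. The lists cover thyroid hormone handling, selenoprotein synthesis, imprint control, Dlk1 shedding and Notch, microRNA processing, other imprinted genes, retrotransposon-derived genes, other long noncoding RNAs and cell type markers. List genes were otherwise the leading ones by TPM, or chosen after their values were seen. Intervals cover counting error only.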

Additional observations from a re-analysis of the deposited data

Results flagged for a closer look

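One signal lay outside the members. On the minus strand between Mirg and Dio3, 24 canonical junctions were read under both numbers of the mm9 junction list, with 358 reads in all, 215 under the first number and 143 under the second. It was picked out because reads were present in a stretch that the member comparisons do not use. The most read of them (mm9 chr12:111231016-111261863) spans 30.85 kb and had 48 and 22 reads. Its intron length equals that of an intron of Gm34667, a minus-strand long noncoding gene of GENCODE M21, and 3 junctions close to Dio3, with 32, 30 and 26 reads, match introns of Dio3os, the antisense neighbour of Dio3. In all, 6 of the 24 matched a minus-strand intron of the interval by length. Contigs covered 9.74% of this strand between Mirg and Dio3, with a mean signal of 0.723. The same stretch also held 231 junctions not marked canonical, with 1127 reads.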

How the results depend on the processing

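Across the 7 alternatives to the scaling, prior count, filter and length correction, no member changed direction between the libraries. The log2 ratio ran between -0.85 and -0.32 for Dlk1, -0.99 and -0.46 for Meg3, -1.34 and -0.70 for Rtl1, -0.71 and -0.17 for Rian, -0.81 and -0.28 for Mirg, and 0.91 and 1.58 for Dio3. The lowest value of all 6 came with spike-in totals, which moved the median of all genes to -0.54. TPM ratios moved it to -0.11. The number of genes beyond 1.5-fold was 853, and 1896 with a mean count of at least 10. The noncoding to coding ratio was 4.42 by TPM, 3.58 by expected counts and 2.997 by mm9 RPKM, and 4.39 to 4.45 when either replicate was left out. Meg3 over Dlk1 was 2.41 by TPM and 1.88 by expected counts, and 2.25 to 2.56 when either replicate was left out. By mm9 RPKM, Rian held 17.4% and Dlk1 24.99% of the locus, and the cause of this order was not tested. The interval held 1417 junctions with at least 1 read under either number, of which 388 were read at least once under both. At least 5 reads under each number were found for 159, and the authors' score was at most 0.1 for 224. Depth limits Rtl1 and Dio3, with 18 to 162 counts per library. No paired analysis was possible because there is only 1 group.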
